A study of Mus musculus with 12 samples.

Results

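miR-451a (mmu-miR-451a in the table) and the 2 arms of miR-144, miR-144-3p (mmu-miR-144-3p) and miR-144-5p (mmu-miR-144-5p), are the microRNAs of 1 small genomic cluster that is active in red cell precursors. They were taken by name from a table of small RNA counts, as 3 of its 1915 mouse microRNA names, and the rule that picks them uses names only, although it was written with earlier results of these data known. The study profiled extracellular vesicles (EVs), the membrane-bound particles that cells release, in plasma of male mice of the inbred strain C57BL/6J. Of 12 libraries, 6 came from mice whose bile duct had been tied off (bile duct ligation, BDL) and 6 from sham-operated mice, all taken on day 8 after surgery. The groups differ in the operation alone as far as the labels say; no age, transgene or drug is given. The tissue is labelled liver, but per the protocol the RNA came from vesicles that a polymer reagent precipitated out of plasma. In such bulk material, fewer vesicles from a cell type and less of a microRNA per vesicle cannot be told apart.

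Erythroid cells make both hairpins from 1 primary transcript, which the red cell transcription factor GATA1 switches on as the cells mature. The hairpins then part ways. miR-144 is cut by Drosha and Dicer, as most microRNAs are, and can leave an arm from either side of its stem. The miR-451a hairpin is too short for Dicer: it is loaded whole into Argonaute 2, cut there, and trimmed to its mature length. miR-451a is among the most abundant microRNAs of mature red cells, and in plasma it is often read as a sign of red cell material.

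The mature sequences below, from RefSeq on GRCm38.p6, are shown because the seed sets which transcripts a microRNA can pair with. Capitals mark the seed, bases 2 to 8 from the 5′ end, and all 3 members matched an entry.
miR-451a: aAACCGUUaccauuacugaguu
miR-144-3p: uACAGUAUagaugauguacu
miR-144-5p: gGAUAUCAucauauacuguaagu
miR-101a-3p: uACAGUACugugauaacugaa
The 3 members have 3 different seeds. miR-101a-3p, from chromosome 4, is the 1 other name in the table whose RefSeq entry shares bases 2 to 7 with a member, miR-144-3p, and base 8 differs. Counted from base 1, miR-101a-3p and miR-144-3p have the same base at 8 of 20 positions.

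The hairpins are shown with their mature parts in capitals, since their shapes differ.
Mir144: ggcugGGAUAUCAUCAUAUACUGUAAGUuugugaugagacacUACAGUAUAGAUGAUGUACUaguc
Mir451a: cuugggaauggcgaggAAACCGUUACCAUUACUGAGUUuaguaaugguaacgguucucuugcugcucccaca
In the minimum-energy fold of Mir144 (66 bases), the 5p arm lies wholly on the 5′ side of a loop of 6 bases and the 3p arm wholly on the 3′ side. In that of Mir451a (72 bases), mature miR-451a takes bases 17 to 38, of which 18 stand in the 5′ side of the stem and 4 in the loop. These folds are predictions from the sequence, not measurements.

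Mir144 lies on GRCm38 at chr11:78073005-78073070 and Mir451a at chr11:78073170-78073241, both on the plus strand, with 99 bases between them. GENCODE M21 places both outside other genes on that strand. Mir451b is annotated on the minus strand over the same 72 bases as Mir451a, and the nearest protein-coding gene, Eral1, a mitochondrial ribosome assembly factor, lies on the minus strand with the near end of its span 134 bases past Mir451a.

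**Figure D1:**
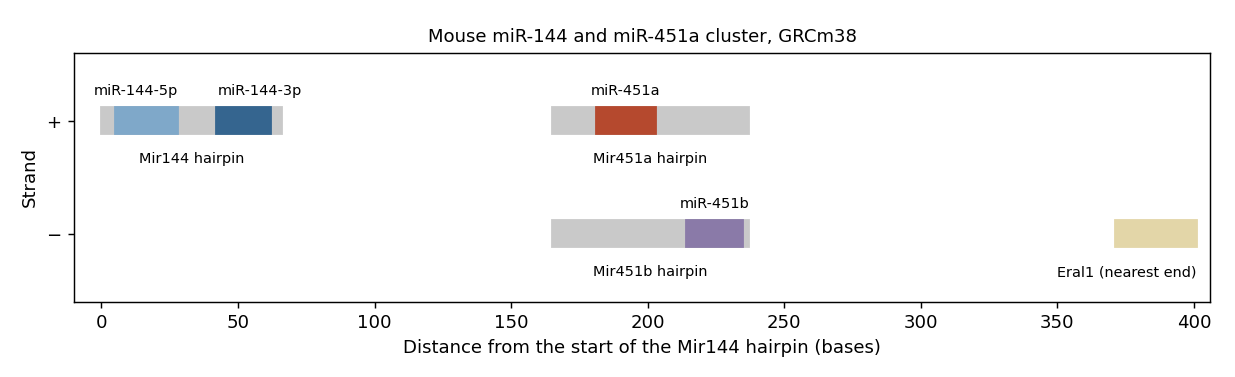
Map of the cluster by distance from the start of the Mir144 hairpin (x axis, bases) and strand (y axis); grey bars are hairpins and coloured bars mature microRNAs. The Mir144 and Mir451a hairpins are 99 bases apart, and mature miR-451a and miR-451b do not overlap although their hairpins do.

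Library totals over mouse names ran from 121003 to 3506914 counts in BDL and from 659302 to 2684636 in sham, and 3 BDL libraries (2, 4 and 6) and 1 sham library (6) held under 1000000. These 3 BDL libraries are also those whose sample codes end in 26; the other 3 end in 24, as do 3 sham libraries, and what the ending means is not given. Levels are given in CPM, counts scaled to 1e6 with edgeR's trimmed-mean (TMM) library scaling. The labels do not say that each library is a separate animal, so p-values measure the spread between these libraries, which may be technical. Right after the group name the codes also hold a digit, here called the first code digit, that 2 libraries of a group have in common. It takes 3 values a group, with no stated meaning. Should libraries with the same digit come from the same source, p-values over 6 against 6 would be too small. With the counts of such libraries summed, the log2 fold change of miR-451a was -2.34 ± 0.22 (SE, adjusted p = 3.42e-05 by edgeR).

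miR-451a was several times lower in vesicles from ligated mice, while miR-144-3p did not pass the test and miR-144-5p had too few counts to be tested, so 2 of the 3 members passed the filter on low counts. miR-451a fell by 2.63 on the log2 scale, a 6.20-fold difference. The log2 fold change of miR-144-3p was -0.60 ± 0.58 (SE). Summed over a group, there were 389 reads of miR-451a per read of miR-144-3p in sham and 114 in BDL. BDL 3 held 107 of the 186 BDL reads of miR-144-3p, and the BDL value was 195 without it and 73.3 without BDL 1.

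miR-451a, the red cell microRNA that bypasses Dicer, had a lowest, median and highest level of 489, 1734 and 2348 CPM in BDL and of 7719, 9649 and 13025 CPM in sham. The highest BDL library lay below the lowest sham library. Such a gap with BDL lower was found in 9.38% of the 341 names tested. Among all mouse names with any count, miR-451a ranked 7 by mean CPM in sham and 33 in BDL, and its mean was 9893 ± 2104 CPM in sham and 1593 ± 706 in BDL (SD over 6 libraries each).

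The log2 fold change of miR-451a, BDL minus sham, was -2.63 ± 0.33 (SE, with a 95% interval from -3.34 to -1.93; adjusted p = 3.51e-05 by edgeR's quasi-likelihood test with Benjamini-Hochberg adjustment). It was lower in 6 of 6 BDL libraries, and was the lowest value among the 341 names. At the same threshold, an adjusted p under 0.05, 18.2% of names were lower and 24.6% higher. As a share of all counts, miR-451a took 0.971 ± 0.241% in sham libraries and 0.175 ± 0.103% in BDL libraries (SD over 6 each, exact two-sided permutation p = 0.00216, the smallest that 924 splits can give). All counts include the equal counts of miR-486a-5p and miR-486b-5p, so shares of all counts here may not be shares of distinct reads.

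The lowest BDL level was in BDL 2 (489 CPM from 272 counts, with an exact 95% Poisson interval of 432 to 550 CPM for counting error). The 3 BDL libraries with code ending 24 lay close together, at 1965 to 2348 CPM. In the 3 BDL and 5 sham libraries of over 1000000 counts the log2 fold change was -2.21 ± 0.25 (adjusted p = 2.46e-05 by edgeR, where 16% of 413 names were lower), so the fall was also present without the shallow libraries.

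miR-144-3p, the arm that pairs with targets through the ACAGUAU seed, was near the limit of what these libraries can count. Its counts were 51, 1, 107, 0, 22 and 5 across BDL 1 to 6, and 87, 73, 39, 22, 49 and 1 across sham 1 to 6. The deep sham libraries were close together, from 21.1 to 30.1 CPM, while the BDL libraries ran from 0 to 40.0 CPM with a median of 9.89 and overlapped the sham range.

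BDL 3 had the highest level of any library, at 40.0 CPM, and sham 6 the lowest of its group, at 1.52 CPM. BDL 4 had 0 counts of both arms, which allows up to 23.98 CPM at 3 counts; a library of that scaled size would hold 2.80 counts of miR-144-3p at the sham mean of 22.4 CPM. A level like that of sham was therefore not separable from absence in BDL 4. In sham 6 the same mean would give 14.7 counts, where 1 was counted.

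The log2 fold change of miR-144-3p was -0.60 ± 0.58 (SE, with a 95% interval from -1.82 to 0.62; adjusted p = 0.437 by edgeR). The interval spans a fall and a rise, so no change in either direction was resolved. Its lower end does not reach the interval of miR-451a. Without BDL 3 the log2 fold change was -1.45 ± 0.58 (adjusted p = 0.0568 by edgeR), farther from 0, and its share of counts then differed with an exact permutation p of 0.0390, against 0.353 with all 12 libraries. In the deep libraries alone the log2 fold change was -0.24 ± 0.41 (adjusted p = 0.667 by edgeR).

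miR-144-5p, the other arm of that hairpin, was too sparse for the count filter in the comparison of all 12 libraries and was not tested there. Its counts were 22, 1, 41, 0, 18 and 2 across BDL 1 to 6, and 17, 23, 17, 4, 26 and 2 across sham 1 to 6. The levels, 0 to 15.3 CPM in BDL and 3.05 to 13.1 CPM in sham, overlapped. It did pass the filter in the deep libraries, where its log2 fold change was 0.27 ± 0.50 (SE; adjusted p = 0.694 by edgeR), and with no count filter the value was -0.12 ± 0.56 (adjusted p = 0.935 by edgeR). The sign thus depended on the libraries and names admitted.

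**Figure D2:**
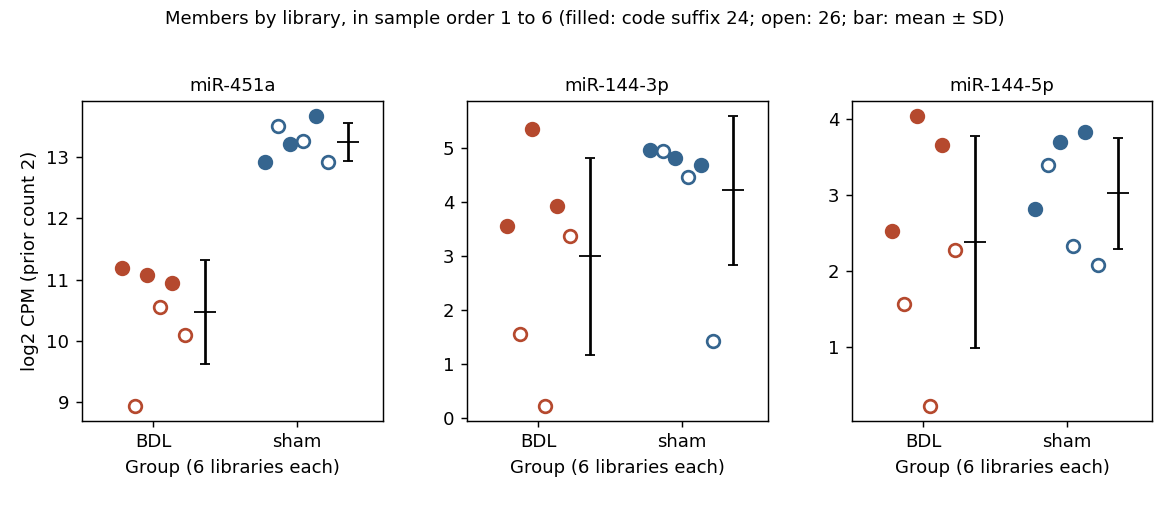
Level of each member in every library (y axis, log2 CPM with a prior count of 2) by group, with the mean ± SD beside the points and the code ending shown by filled (24) or open (26) circles. For miR-451a every BDL point lies below every sham point; for both miR-144 arms the groups overlap, and the lowest BDL point is a count of 0 (BDL 4).

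The 2 arms of the miR-144 hairpin kept the same order in most libraries. miR-144-3p had more counts than miR-144-5p in 5 of 6 sham libraries and in 4 of 6 BDL libraries, and the other 2 BDL libraries had equal counts (1 and 1 in BDL 2, 0 and 0 in BDL 4). Summed over the group, there were 2.21 reads of the 3p arm per read of the 5p arm in BDL and 3.04 in sham. The mean log2 ratio of 3p to 5p counts, with 0.5 added to each, was 1.27 ± 1.14 in sham and 0.66 ± 0.64 in BDL (SD, n = 6 each; exact permutation p = 0.286, or 0.333 adjusted over the 7 ratios compared).

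A ratio of 2 names within a library needs no library scaling, so it was used to test whether miR-451a and miR-144-3p differed in their response. With 0.5 added to each count, the tested ratio still depends on depth where miR-144-3p has few reads. That holds for BDL 2, 4 and 6 and for sham 6, so the comparison of all 12 libraries is not free of depth. There were 221, 272, 53.8, 140 and 120 reads of miR-451a (22 bases) per read of miR-144-3p (20 bases) in BDL 1, 2, 3, 5 and 6, and BDL 4 had no read to divide by. Sham libraries 1 to 5 had 256, 390, 349, 465 and 527, and sham 6 had 5084 reads of miR-451a to 1 of miR-144-3p. In these reads BDL 2, whose value also rests on 1 read of miR-144-3p, exceeded sham 1, so the groups touched. On the log2 scale tested below, the amount added to each count gave BDL 4 a value of 8.56, although it had no read of miR-144-3p. There BDL 2 (7.51) lay below sham 1 (7.99), and the overlap came from BDL 4, which lay above sham 1 and sham 3 (8.43).

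For miR-451a to miR-144-3p the mean log2 ratio was 9.10 ± 1.33 in sham and 7.24 ± 0.96 in BDL (SD, n = 6 each). BDL minus sham was -1.86, or 3.63-fold (exact permutation p = 0.00649, or 0.0152 adjusted over 7 ratios). In the deep libraries the difference was -1.70, and the BDL values (5.74 to 7.78) did not overlap the sham values (7.99 to 9.03; exact permutation p = 0.0357 with 3 against 5, the smallest that 56 splits can give, or 0.0833 adjusted over 7 ratios). With 1 mean for each first code digit, the 3 BDL means lay below the 3 sham means, at the same difference of -1.86 (exact permutation p = 0.1, the smallest that 3 against 3 can give, so that no call was possible).

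Other names known from red cells gave a mixed set of references. miR-16-5p, a widely expressed microRNA that is also abundant in red cells, fell by 2.06 ± 0.46 on the log2 scale (SE; adjusted p = 0.00189 by edgeR). For miR-451a to miR-16-5p the mean log2 ratio was 5.59 ± 0.81 in sham and 4.91 ± 0.33 in BDL (SD, n = 6 each; difference -0.68, exact permutation p = 0.0519, or 0.0727 adjusted). Without BDL 4, where miR-16-5p had its lowest count of 4, the difference was -0.78, with an adjusted exact permutation p of 0.0303. Without sham 6, whose ratio of 7.12 was the highest, it was -0.37, with an adjusted exact permutation p of 0.121. Of 12 runs that each left out 1 library, only that without BDL 4 passed the threshold. In the deep libraries the difference was -0.56, and the BDL values (4.58 to 4.96) did not overlap the sham values (5.06 to 5.91). The exact permutation p there was 0.0357, again the smallest that 3 against 5 can give, or 0.0833 adjusted.

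miR-486a-5p, made from a hairpin inside the red cell gene Ank1 and the name with the highest mean CPM in both groups (miR-122-5p exceeded it in BDL 1 and BDL 4), gave a different reading for each hairpin. For miR-451a to miR-486a-5p the mean log2 ratio was -5.32 ± 0.36 in sham and -7.52 ± 1.33 in BDL (SD, n = 6 each; difference -2.20, exact permutation p = 0.00433, or 0.0152 adjusted). In the deep libraries the difference was -1.37 (exact permutation p = 0.0714, or 0.10 adjusted), and BDL 1 overlapped the sham range. For miR-144-3p to miR-486a-5p the values were -14.42 ± 1.46 and -14.76 ± 1.65 (n = 6 each; difference -0.34, exact permutation p = 0.712), and the difference was 0.34 in the deep libraries. miR-486b-5p has the same counts as miR-486a-5p in every library and adds no further reference.

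miR-23a-3p, a microRNA little affected by red cell lysis and used with miR-451a to gauge haemolysis, rose by 1.35 ± 0.45 on the log2 scale (SE; adjusted p = 0.0215 by edgeR). Against miR-23a-3p, the log2 ratio of miR-451a did not overlap between groups, with -1.93 to 2.37 in BDL and 3.10 to 4.58 in sham (difference -3.77; n = 6 each, exact permutation p = 0.00216, or 0.0152 adjusted). That of miR-144-3p was -5.33 ± 1.31 in sham and -7.24 ± 1.57 in BDL (SD, n = 6 each; difference -1.91, exact permutation p = 0.0498, or 0.0727 adjusted). Without BDL 3 or sham 6 the latter difference was -2.28 or -2.41, with adjusted exact permutation p of 0.0455 and 0.0202. In the other 10 of 12 runs that each left out 1 library it did not pass the threshold (adjusted exact permutation p up to 0.145).

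**Figure D3:**
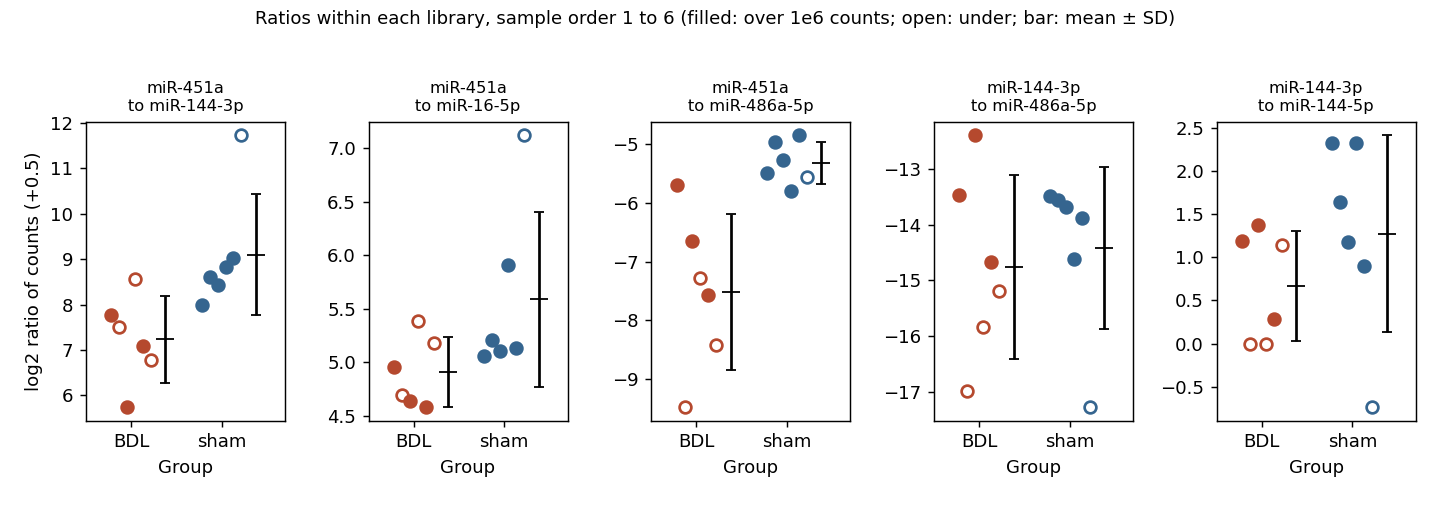
Log2 ratio of counts (0.5 added to each) within every library for 5 pairs of names (y axis, each panel with its own scale), by group with the mean ± SD; filled circles are libraries of over 1e6 counts. For miR-451a to miR-144-3p the filled BDL points (5.74 to 7.78) lie below the filled sham points (7.99 to 9.03), while for miR-144-3p to miR-486a-5p the groups overlap.

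Of 17 names in the red cell list, 14 were tested: 7 were lower in BDL, 1 was higher and 6 did not pass the threshold. Their median log2 fold change was -0.97, against 0.03 over the 341 names tested, of which 18.2% were lower. Beside miR-451a the lower names were miR-16-5p, miR-363-3p (-1.75 ± 0.55), both 3p arms of miR-486 (-1.74 ± 0.24 and -1.72 ± 0.24, with nearly identical counts), miR-93-5p (-1.42 ± 0.40) and miR-15b-5p (-1.31 ± 0.48), with adjusted p by edgeR of 0.0341 or less. miR-182-5p, from a cluster also active in sensory and epithelial cells, was the higher one (1.73 ± 0.36, adjusted p = 0.00130 by edgeR). miR-144-3p lay between miR-25-3p (-0.63 ± 0.35) and miR-92a-3p (-0.56 ± 0.24), neither of which passed the threshold (adjusted p = 0.160 and 0.0679 by edgeR).

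**Figure D4:**
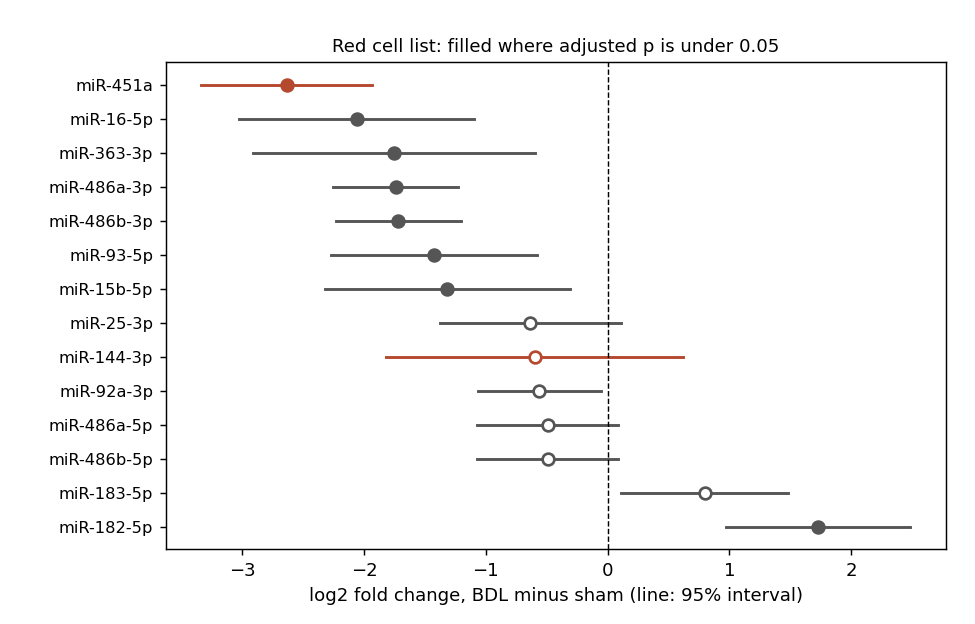
Log2 fold change, BDL minus sham (x axis), with its 95% interval for the 14 tested names of the red cell list (y axis), ordered by value; filled circles passed an adjusted p of 0.05. miR-451a has the lowest value (-2.63), and the interval of miR-144-3p (-1.82 to 0.62) crosses 0.

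miR-101a-3p, the seed relative of miR-144-3p, had 160 ± 41.7 CPM in sham and 81.2 ± 23.8 in BDL (SD, n = 6 each). Its log2 fold change was -0.95 ± 0.29 (SE; adjusted p = 0.0147 by edgeR). Of the 2 names compared here with ACAGUA at bases 2 to 7, it was thus the more abundant in both groups: miR-144-3p averaged 22.4 CPM in sham and 12.6 in BDL. miR-101b-3p holds the same hexamer at a shifted position and was not compared. The difference between the fold changes of miR-101a-3p and miR-144-3p was not tested. miR-101c, whose entry is miR-101a-3p without its end bases, has nearly the same counts, so the reads of these names cannot be told apart.

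miR-451b, the minus-strand name over the miR-451a hairpin, had 9 counts in all BDL libraries and 10 in all sham libraries. Its mature form, at chr11:78073219-78073239, shares no base with mature miR-451a, at chr11:78073186-78073207. Whether the counting used strand is not given, so reads from the 3′ side of this hairpin could not be assigned to a strand, and miR-451b was too sparse to test.

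Across the 12 libraries, the names with the log2 CPM pattern most like miR-451a were miR-148b-3p (Pearson r = 0.985), miR-146b-5p (0.963) and miR-142a-5p (0.948). These points share library depth and the group difference. With the group means taken out, miR-148b-3p stayed first (r = 0.937), followed by miR-8097 (0.901) and miR-181b-5p (0.889). miR-148b-3p itself fell by 1.91 ± 0.33 on the log2 scale (SE; adjusted p = 3.61e-04 by edgeR).

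For miR-144-3p the nearest tested names were miR-421-3p (r = 0.827), miR-93-5p (0.826) and let-7d-5p (0.817), and with group means taken out miR-93-5p (0.862), miR-222-3p (0.844) and miR-421-3p (0.833). miR-144-5p was nearest to miR-144-3p (r = 0.881), then miR-421-3p (0.841) and miR-744-3p (0.839), and with group means taken out to miR-421-3p (0.905), miR-26b-5p (0.902) and miR-144-3p (0.869). The arms of miR-144 were thus more alike across libraries than either was like miR-451a, for which r was 0.530 with the 3p arm and 0.464 with the 5p arm (0.496 and 0.505 with group means taken out). All are descriptions over the same 12 libraries, 4 of which hold 0 to 5 counts of miR-144-3p.

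Markers of other cells moved with the operation too, against 18.2% of all 341 tested names lower and 24.6% higher. The hepatocyte list took 7.17 to 33.9% of BDL counts and 0.432 to 2.51% of sham counts, with 2 of 3 tested names higher. miR-122-3p was too sparse to test, with 0 counts in all sham libraries and 0 to 9 counts in BDL libraries (mean 0.72 ± 0.90 CPM, SD). With miR-122-5p and both miR-486 5p names taken out of the total, the share of miR-451a differed by -3.48 percentage points (BDL minus sham; exact permutation p = 0.00216, n = 6 each). That total is smaller, so the value is not on the scale of the -0.796 points over all counts. It also still holds miR-192-5p of the hepatocyte list, which rose by 3.37 on the log2 scale. The leukocyte list had 3 of 5 names lower and 0 higher, and took 0.0502 to 0.303% of BDL and 0.279 to 0.661% of sham counts. Of the 4 platelet and endothelial names 2 were lower and 1 higher, with 0.529 to 2.26% of BDL and 0.565 to 1.22% of sham counts. The part of these cells in the fall of miR-451a was not tested.

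Between libraries with code ending 26 and those with 24, the fold change of miR-451a differed by -1.02 ± 0.51 on the log2 scale (SE; adjusted p = 0.272 for the interaction by edgeR), from -2.20 ± 0.29 with ending 24 to -3.24 ± 0.47 with ending 26, both past the threshold (12.9% and 18.1% of names tested were lower). For miR-144-3p the difference was -1.62 ± 1.13 (adjusted p = 0.431 by edgeR), with -0.31 ± 0.49 for ending 24; its counts with ending 26 did not pass the filter. In BDL the ending and the depth cannot be told apart.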

How the data were processed

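The authors deposited whole-number read counts per microRNA name for 12 libraries. cutadapt and STAR were used, per the submitters' processing notes. Their versions, the genome build, the annotation and the strand setting were not given in the sources used here. Per the labels' protocols, libraries were made with a NEBNext small RNA kit, and no molecular identifiers are described. Poisson intervals therefore cover counting error only. The intervals of log2 fold changes come from the edgeR fit and also cover the spread between libraries. Of 1982 names, 67 of other species were left out.

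Counts were tested with edgeR 4.0.16 (R 4.3.3) by its quasi-likelihood F test with TMM scaling. Low counts were filtered with filterByExpr, and p-values of the 341 names tested were Benjamini-Hochberg adjusted. The fit was checked on simulated counts. SE is the log2 fold change over the square root of F. Ratios (7) and shares (3) were compared by exact two-sided permutation tests. Alternatives used DESeq2 1.42.0 and limma 3.58.1. Folds were predicted with RNAfold 2.7.2. No 2 libraries of a group agreed within sampling noise. Positions are from RefSeq (GRCm38.p6) and GENCODE M21, which may differ from the authors' build.

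Named were the members, the red cell list, names sharing a seed or hairpin with a member, and the 3 names most like each by Pearson r. Members and lists were chosen with earlier results of these data known. The comparison of deep libraries, the ratios averaged by first code digit and the summed reads without 1 library were added after the data were seen.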

Additional observations from a re-analysis of the deposited data

Results flagged for a closer look

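Of 26 groups of 6 values checked (levels, ratios and shares of the members in each group), 4 held a library far from the other 5, where chance gives about 1 in 20. The groups are not independent, since all flags in sham 6 rest on the same 1 count of miR-144-3p, so no excess over chance can be read from this. In sham 6, with 1 count of miR-144-3p, the log2 CPM of miR-144-3p was 1.42 against 4.48 in the next library, its log2 ratio to miR-486a-5p was -17.28 against -14.62, and miR-451a to miR-144-3p had a log2 ratio of 11.73 against 9.03. In BDL 3, miR-144-3p took 0.00470% of counts against 0.00145% in the next library. Without sham 6 the ratio of miR-451a to miR-144-3p still passed the adjusted threshold, at a log2 difference of -1.33.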

How the results depend on the processing

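The fall of miR-451a kept its direction and its side of the threshold in all 26 alternatives run, between -3.24 and -2.20 (adjusted p at most 4.10e-04), with -2.86 to -2.52 when 1 library was left out. The alternative with names of other species in library sizes returned the main values for miR-451a and miR-144-3p, so it adds no check. miR-144-3p was not past the threshold in any of 24, from -1.45 to -0.24, and could not be tested with ending 26 or with libraries thinned to the shallowest. miR-144-5p, with -0.35 as the log2 ratio of group mean CPM and no test, had -0.30 to 0.27 in the 14 alternatives that could test it. Median log2 fold change over the names tested was 0.03, -0.11 with DESeq2 size factors and 0.12 with total counts.

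The labels state no pairing by sample number, and 6 pairs are too few to exclude one. Deviations from group means correlated at -0.09 to 0.31 over 6 pairs, 2 of them over 0.1, and 2 of 6 BDL libraries correlated best with their own number. With the replicate block, names past the threshold were 72 higher and 61 lower, against 84 and 62. Paired by number, which leaves the mean differences as they are (-1.86, -2.20 and -3.77), the log2 ratios of miR-451a to miR-144-3p, miR-486a-5p and miR-23a-3p were no longer past the threshold, with an adjusted p of 0.0547 from 64 sign changes. Before adjustment each of these ratios was at the smallest p that 64 sign changes can give. The paired test therefore could not tell a lost difference from its own limit. With 3 deep BDL libraries against 5 sham the same differences, in that order, were -1.70, -1.37 and -3.80 (adjusted p 0.0833, 0.10 and 0.0833), where the smallest p before adjustment is 0.0357. When 1 library was left out, the ratio of miR-451a to miR-16-5p ranged from -0.79 to -0.37, that of miR-144-3p to miR-23a-3p from -2.41 to -1.47, and the share of miR-144-3p from -0.00148 to -0.000542 percentage points. Names past the threshold were 54 higher with ending 26, and 40 higher and 27 lower in thinned libraries, where 132 names were tested. Depth limits miR-144: 4 libraries hold at most 5 counts of its 3p arm.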
